A study of Mus musculus with 8 samples.

Results

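The gasdermin family was followed through RNA of mouse colon cancer organoids, cultures of epithelial cells that build themselves into hollow or budded structures. The members were 8 listed genes out of 32728 in the count table: Gsdma, Gsdma2, Gsdma3, Gsdmc, Gsdmc2, Gsdmc3, Gsdmc4 and Gsdmd. All 8 were found by name and all 8 passed the filter on low counts, the 4 Gsdmc genes through CTO19 without EGF, the group in which they were highest. Organoids of every group carried CRISPR disruptions of Apc, Trp53 and Smad4, on a C57BL/6 background. The groups were CTO19 (labelled male) without EGF for 7 days (noEGF), CTO19 in the control medium with EGF for 3 days (EM), apsMC706 (labelled female) in noEGF and apsMC706 in EM, each with 2 libraries. Per the labels the control medium held EGF, the supplement B27, noggin, which blocks BMP ligands, and galunisertib, which inhibits the TGF-beta receptor. Each line is a single organoid line, and the labels do not say whether its replicates were separate cultures, so p-values within a line measure the spread between these libraries. Tests over both lines also count each library as a unit, with only 2 lines behind them. Their p-values do not show how other lines would respond. Medium and days in culture cannot be told apart, and neither can line and labelled sex.

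Gasdermins are proteins that punch holes in membranes. In the resting state the carboxy-terminal part of the protein holds back the amino-terminal part. A protease cut frees the amino-terminal part, which assembles into pores, and the cell can then leak its contents and die by pyroptosis. Gasdermin D is cut by caspase-1 below inflammasomes and by caspase-11, the product of mouse Casp4, and its pores let mature interleukin-1 family cytokines out. Gasdermin A is a product of skin and of the upper digestive tract. The mouse carries several Gsdma and several Gsdmc copies where the human genome has a single gene of each, and type 2 cytokines are known to raise the Gsdmc genes in mouse intestinal epithelium.

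Both clusters are rows of near-copies, which bears on how counts can be split among them. On chromosome 11 (mm10, plus strand) Gsdma3 lay at 98626360 to 98638226, Gsdma2 at 98646759 to 98657964 and Gsdma at 98664351 to 98677708. On chromosome 15 (minus strand) Gsdmc lay at 63775968 to 63808759, Gsdmc2 at 63824346 to 63845177, Gsdmc3 at 63857724 to 63878558 and Gsdmc4 at 63891264 to 63912297. Gsdmd stood alone at 75862327 to 75867408 of chromosome 15, on the plus strand. A stretch of 120 coding bases, inside 1 exon in each gene, shows how alike the copies can be. The stretches of the Gsdma cluster are chr11:98666061-98666180 (Gsdma), chr11:98649054-98649173 (Gsdma2) and chr11:98629352-98629471 (Gsdma3), and capitals mark bases that differ from Gsdma.
Gsdma: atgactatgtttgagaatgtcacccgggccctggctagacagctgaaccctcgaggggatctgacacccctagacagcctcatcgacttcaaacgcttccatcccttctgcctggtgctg
Gsdma2: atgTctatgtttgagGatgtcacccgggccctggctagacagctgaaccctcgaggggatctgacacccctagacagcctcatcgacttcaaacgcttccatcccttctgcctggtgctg
Gsdma3: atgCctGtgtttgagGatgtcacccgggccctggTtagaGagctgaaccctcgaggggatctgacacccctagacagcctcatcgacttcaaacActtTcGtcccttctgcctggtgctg
Gsdma2 differed from Gsdma at 2 of these bases and Gsdma3 at 8. The stretches of the Gsdmc cluster are chr15:63835824-63835943 (Gsdmc2), chr15:63804473-63804592 (Gsdmc), chr15:63869178-63869297 (Gsdmc3) and chr15:63902811-63902930 (Gsdmc4), read on the minus strand, and capitals mark bases that differ from Gsdmc2.
Gsdmc2: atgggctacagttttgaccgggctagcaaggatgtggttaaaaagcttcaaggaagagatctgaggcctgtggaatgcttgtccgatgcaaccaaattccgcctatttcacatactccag
Gsdmc: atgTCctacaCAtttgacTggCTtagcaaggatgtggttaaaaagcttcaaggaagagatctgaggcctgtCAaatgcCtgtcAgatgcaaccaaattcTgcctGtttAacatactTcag
Gsdmc3: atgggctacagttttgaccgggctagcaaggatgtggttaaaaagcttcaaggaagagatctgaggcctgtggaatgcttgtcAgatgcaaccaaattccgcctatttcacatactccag
Gsdmc4: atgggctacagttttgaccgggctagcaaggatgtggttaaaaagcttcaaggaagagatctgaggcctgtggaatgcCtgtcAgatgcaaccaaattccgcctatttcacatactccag
Gsdmc3 differed from Gsdmc2 at 1 base, Gsdmc4 at 2 and Gsdmc at 15. Across the whole aligned coding sequence Gsdmc2 and Gsdmc3 were 97.083% identical, with a shared run of 317 bases, and each was 93.794% identical to Gsdmc4. Gsdma and Gsdma2 were 90.937% identical, with a shared run of 147 bases.

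Every 50-base word of the annotated transcripts was looked up in all other genes to see how much of each member is unique. Of these words, 51.341% of Gsdmc2, 46.029% of Gsdmc3 and 38.998% of Gsdmc4 also occurred in another gene, against 16.057% of Gsdmc. The shares were 8.256% for Gsdma, 5.103% for Gsdma2, 5.707% for Gsdma3 and 0% for Gsdmd. At a word length of 100 bases, 28.603% of Gsdmc2 was still shared, and 1.827% of Gsdma. None of the sources used here states the read length or how reads with several matches were handled, so the split among Gsdmc2, Gsdmc3 and Gsdmc4 is uncertain, and values for the summed clusters are given beside the single genes.

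**Figure D1:**
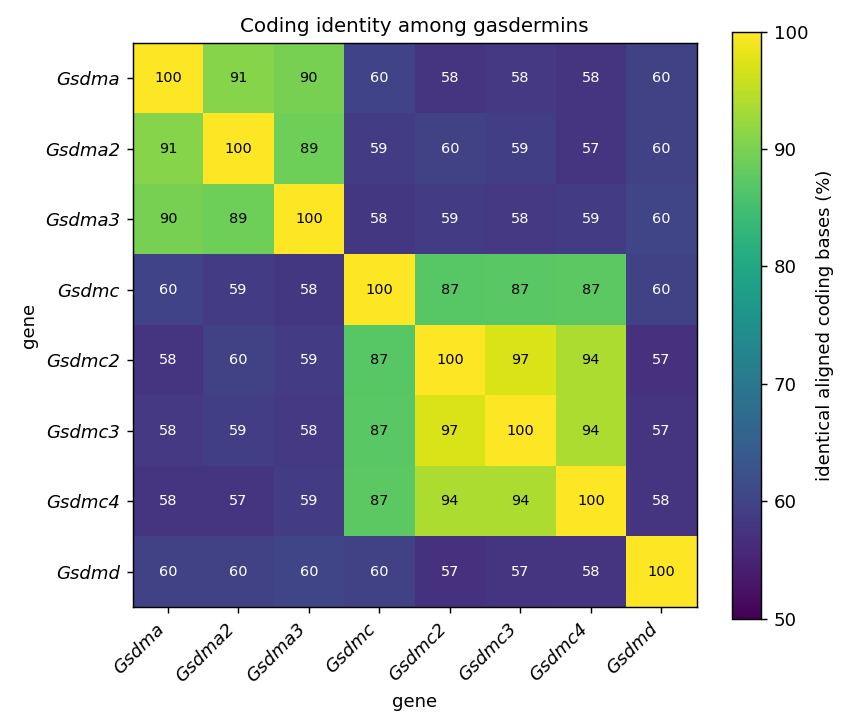
Percent of aligned coding bases that were identical for each pair of the 8 gasdermins (rows and columns are genes, colour and number give the percent, rounded). The Gsdmc2 and Gsdmc3 pair stands highest at 97.083%, and Gsdmd shares no near-copy.

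Promoters of only 2 of the 8 members, Gsdma3 and Gsdmc3, were in the RefSeq table (GRCm38.p6), and these are shown. The 250 bases before the start of Gsdma3 (chr11:98626099-98626348, plus strand) and of Gsdmc3 (chr15:63878559-63878808, minus strand) read as follows, with motif matches in capitals.
Gsdma3: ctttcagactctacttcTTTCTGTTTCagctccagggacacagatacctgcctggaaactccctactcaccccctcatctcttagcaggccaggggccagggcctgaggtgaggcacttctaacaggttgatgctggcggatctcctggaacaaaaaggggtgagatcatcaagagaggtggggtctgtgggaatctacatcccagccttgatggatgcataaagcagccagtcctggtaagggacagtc
Gsdmc3: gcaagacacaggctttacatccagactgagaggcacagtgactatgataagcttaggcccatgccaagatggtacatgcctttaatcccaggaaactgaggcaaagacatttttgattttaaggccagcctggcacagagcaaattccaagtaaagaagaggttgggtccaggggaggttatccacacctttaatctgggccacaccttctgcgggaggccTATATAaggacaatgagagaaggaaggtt
The capitals in Gsdma3 are a match to the interferon regulatory factor motif (GAAA, any 2 bases, GAAA) at -233 on the minus strand, a motif held by 2.98% of 32851 promoters. The capitals in Gsdmc3 are a match to the TATA box letters TATANA at -29, held by 22.6% of promoters. AP-1 (TGANTCA), STAT6 (TTC, any 4 bases, GAA), TCF/LEF (ATCAAAG), FOX (GTAAACA) and the p53 family motif, a single copy of its repeated element, had 0 matches on either strand in these 2 windows, and the capitals overlap no other match. These motifs occurred in 6.75%, 5.85%, 3.21%, 3.17% and 7.13% of promoters in that order.

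Libraries held 35650262 to 38953838 counts, so that 3 counts, the limit that a count of 0 allows, were 0.0745 to 0.0868 CPM, counts scaled to a library total of 1e6. Floors cover counting error only. Mitochondrial genes took 4.13% to 5.19% of counts in noEGF and 2.94% to 3.68% in EM. Transcripts of the targeted genes were still counted, with Apc at 59.8 to 198 CPM, Trp53 at 13.0 to 33.3 CPM and Smad4 at 10.8 to 39.9 CPM, and such counts do not show whether the protein is made. Colon and intestinal markers summed to 2960 to 3800 CPM in every group, a sum that includes general epithelial genes. Of the intestinal ones, Lgr5 was at 14.3 to 21.1 CPM in CTO19, against 166 to 300 CPM in apsMC706, and Vil1 at 28.2 to 55.1 CPM in CTO19, against 166 to 226 CPM in apsMC706 (group means). Krt20 and Cdx1 were at or near 0 in every group, and Cdx2 was at 1.1 to 2.05 CPM in CTO19, against 9.32 to 10.1 CPM in apsMC706 (group means). Markers of squamous epithelium, the layered lining of skin and oesophagus, summed to 6370 to 7880 CPM in CTO19 and 6.01 to 35.7 CPM in apsMC706. CTO19 therefore carried squamous genes such as Krt5 (2230 CPM in noEGF and 3790 CPM in EM) and Trp63 (65.5 CPM in noEGF and 130 CPM in EM) beside its colon label. Markers of immune cells summed to 8.18 CPM or less, of fibroblasts to 11.4 CPM or less, and of endothelial, glial and muscle cells to 6.37 CPM or less.

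The members were chosen by name with their counts in the 4 groups of line and medium known, and which contrast weighed most is not recorded. Levels and fold changes of the members are therefore a description, with standard errors and no p. A member is said to rise or fall where it passed an adjusted p of 0.05 in an edgeR quasi-likelihood test over all 16719 genes tested, and nothing is read from how many did. In CTO19 8 of 8 members rose in noEGF and 0 fell, where 68.0% of all tested genes passed and 34.7% rose. In apsMC706 1 rose and 5 fell, where 67.2% of genes passed, 34.1% upwards and 33.1% downwards, and 3 members fell without apsMC706 noEGF replicate 1. The response difference, CTO19 minus apsMC706, passed for 7 members, 6 of them positive, where 56.0% of genes passed and 30.4% were positive. Over both lines 2 rose (Gsdmc and Gsdmd) and 0 fell, where 48.8% of genes passed, 25.5% upwards and 23.3% downwards, and Gsdmc, with 0 counts in apsMC706, was no longer called in a model without a term for line. Comparisons of medium within a line and between lines share libraries, and each has its own values below.

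The gasdermin A genes turned in opposite directions in the 2 lines. Gsdma, whose product forms pores in skin and upper digestive epithelium (ENSMUSG00000017204), had 2224 and 2764 counts in CTO19 noEGF, against 274 and 237 in CTO19 EM. It had 45 and 51 counts in apsMC706 noEGF, against 618 and 587 in apsMC706 EM. The libraries of all 4 groups lay apart, with CTO19 noEGF highest, apsMC706 EM next, CTO19 EM below it and apsMC706 noEGF lowest. As levels these were 64.3 ± 6.24 CPM in CTO19 noEGF and 7.3 ± 0.9 CPM in CTO19 EM, and 1.29 ± 0.0848 CPM in apsMC706 noEGF and 16.2 ± 0.257 CPM in apsMC706 EM (SD, n = 2 each). Gsdma thus rose 8.82-fold in CTO19 (log2 fold change 3.14, SE 0.0875) and fell 12.5-fold in apsMC706 (-3.65, SE 0.135). The difference between these responses was 6.79 on the log2 scale (SE 0.157). Over both lines the opposite changes left a log2 fold change of 0.02 with an SE of 1.83. Of all tested genes, 983 (5.88%) fell in apsMC706 and rose in CTO19.

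Gsdma2 and Gsdma3, the neighbouring copies, followed the same order of groups at lower levels. Gsdma2 (ENSMUSG00000017211) had 182 and 236 counts in CTO19 noEGF, 21 and 21 in CTO19 EM, 3 and 2 in apsMC706 noEGF and 33 and 58 in apsMC706 EM. Gsdma3 (ENSMUSG00000064224), mutations of which cause hair loss in mice, had 112 and 152 counts in CTO19 noEGF, 18 and 13 in CTO19 EM, 4 and 2 in apsMC706 noEGF and 40 and 28 in apsMC706 EM. For both genes the noEGF and EM libraries did not overlap in either line. Gsdma2 rose 8.95-fold in CTO19 (log2 fold change 3.16, SE 0.25) and had a log2 fold change of -4.12 (SE 0.487) in apsMC706. Gsdma3 rose 7.64-fold in CTO19 (2.93, SE 0.265) and had -3.45 (SE 0.465) in apsMC706. The apsMC706 noEGF libraries held 2 to 4 counts of each, so the size of those falls is known only loosely.

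Gsdma made up most of its cluster in every group. It took 88.0% of Gsdma, Gsdma2 and Gsdma3 counts in CTO19 noEGF (95% Wilson interval 87.1% to 88.8%) and 87.5% in CTO19 EM (84.6% to 89.9%). In apsMC706 it took 89.7% in noEGF (82.5% to 94.2%) and 88.3% in EM (86.5% to 89.9%). The intervals of the 4 groups overlap. The share of Gsdma2 differed between the apsMC706 EM libraries, at 4.78% (3.42% to 6.63%) in replicate 1 and 8.62% (6.73% to 11%) in replicate 2. The summed cluster had log2 fold changes of 3.13 (SE 0.0868) in CTO19 and -3.67 (SE 0.133) in apsMC706, close to those of Gsdma alone, and its response difference was 6.80 (SE 0.155).

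**Figure D2:**
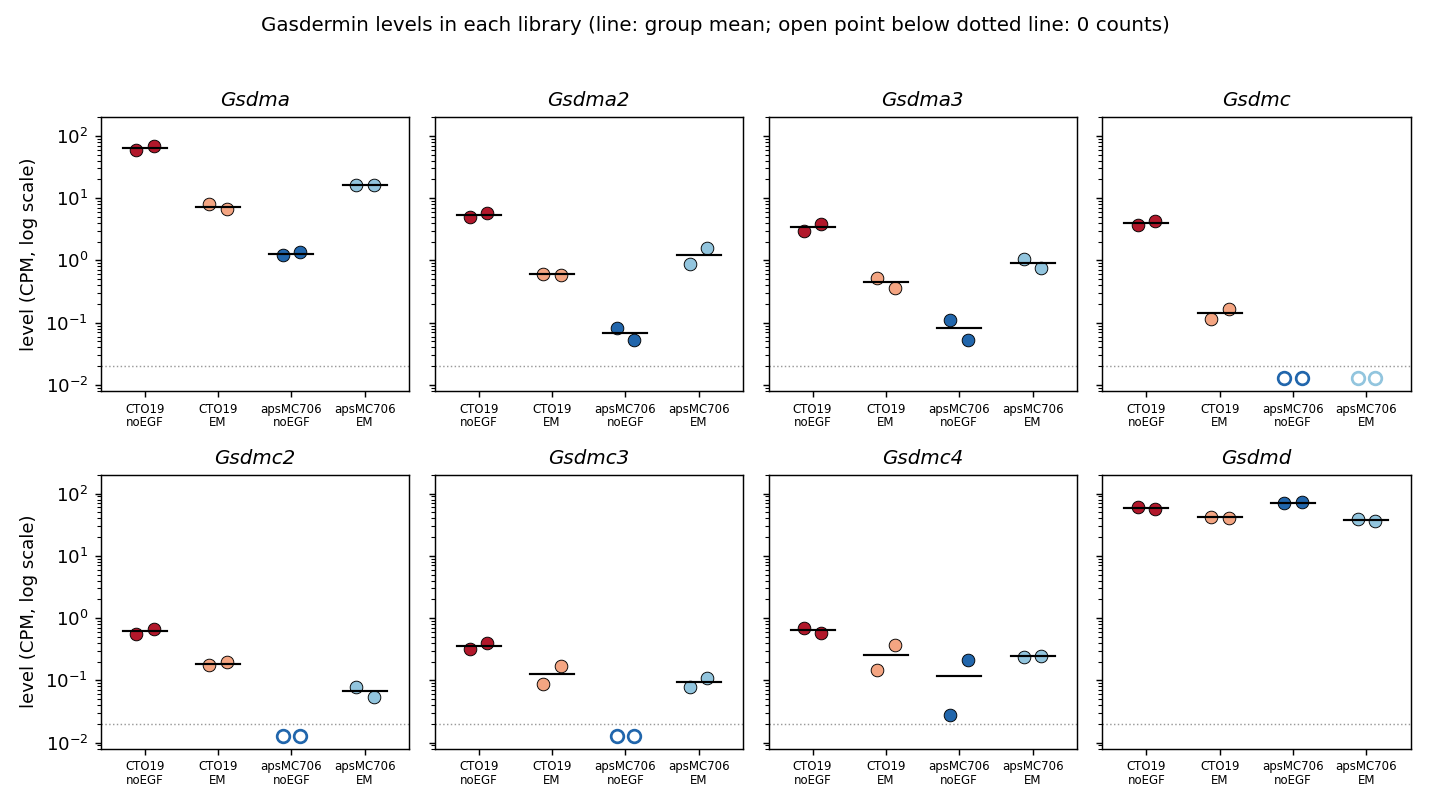
Level of each of the 8 gasdermins (CPM, log scale) in each library, by group from CTO19 noEGF to apsMC706 EM. Points are libraries, lines are group means and open points below the dotted line are libraries with 0 counts. The Gsdma genes are highest in CTO19 noEGF (64.3 CPM for Gsdma) and lowest in apsMC706 noEGF (1.29 CPM), while Gsdmd stays between 36 and 72.8 CPM.

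The gasdermin C genes had their highest counts in CTO19 without EGF, the group through which they passed the filter. Gsdmc (ENSMUSG00000079025) had 136 and 172 counts in CTO19 noEGF, against 4 and 6 in CTO19 EM, and 0 in all 4 apsMC706 libraries. It rose 27.2-fold in CTO19 (log2 fold change 4.77, SE 0.309), to 3.97 ± 0.434 CPM in noEGF, against 0.142 ± 0.0373 CPM in EM (SD, n = 2 each). In noEGF it was at least 49.3-fold higher in CTO19 than in apsMC706, and in EM at least 1.77-fold, taking 3 counts per library as the floor. No fold between media can be given for apsMC706.

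Gsdmc2, Gsdmc3 and Gsdmc4, the copies that type 2 cytokines raise in mouse intestine, were scarce in every library. Gsdmc2 (ENSMUSG00000056293) had 21 and 27 counts in CTO19 noEGF, 6 and 7 in CTO19 EM, 0 and 0 in apsMC706 noEGF and 3 and 2 in apsMC706 EM. Gsdmc3 (ENSMUSG00000055827) had 12 and 16 counts in CTO19 noEGF, 3 and 6 in CTO19 EM, 0 and 0 in apsMC706 noEGF and 3 and 4 in apsMC706 EM. Gsdmc4 (ENSMUSG00000055748) had 26 and 23 counts in CTO19 noEGF, 5 and 13 in CTO19 EM, 1 and 8 in apsMC706 noEGF and 9 and 9 in apsMC706 EM. All 3 were highest in CTO19 noEGF, but they passed the filter on low counts through that group, so nothing is read from this order. In CTO19 Gsdmc2 rose 3.3-fold (log2 fold change 1.72, SE 0.404), Gsdmc3 2.77-fold (1.47, SE 0.514) and Gsdmc4 2.45-fold (1.29, SE 0.479). All 3 calls were lost with the DESeq2 Wald test, at log2 fold changes of 1.75, 1.5 and 1.32. The Gsdmc3 call was also lost without CTO19 EM replicate 1 (1.08) or CTO19 noEGF replicate 2 (1.32), and the Gsdmc4 call without CTO19 EM replicate 1 (0.79) or CTO19 noEGF replicate 1 (1.15).

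In apsMC706 Gsdmc2 and Gsdmc3 passed the test downwards on the counts just given, which are too few for a fold. The Gsdmc2 call was lost with the DESeq2 Wald test and without apsMC706 EM replicate 1, the Gsdmc3 call without apsMC706 EM replicate 2, and both without apsMC706 noEGF replicate 1 or 2. Gsdmc4 had a log2 fold change of -0.98 (SE 0.686) that did not pass. Without apsMC706 noEGF replicate 2, the library with 8 Gsdmc4 counts, this value was -3.01 and passed. The Gsdmc4 response difference of 2.27 (SE 0.839) was lost with the DESeq2 Wald test and without either apsMC706 EM library, apsMC706 noEGF replicate 1, CTO19 EM replicate 1 or CTO19 noEGF replicate 1, where it was 1.49 to 2.31. Summed over the cluster, Gsdmc counts had a log2 fold change of 2.97 (SE 0.261) in CTO19 and -1.71 (SE 0.588) in apsMC706. Their response difference was 4.68 (SE 0.639).

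The make-up of the Gsdmc cluster differed between media in CTO19. Gsdmc took 71.1% of the cluster's 433 counts in noEGF (95% Wilson interval 66.7% to 75.2%), against 20.0% of 50 counts in EM (11.2% to 33.0%). Gsdmc4 took 11.3% in noEGF (8.67% to 14.6%) and 36% in EM (24.1% to 49.9%). The intervals of these summed counts do not overlap for either gene, and cover counting error only. Those of Gsdmc stayed apart by library. For Gsdmc4, EM replicate 1 (27.8%, 12.5% to 50.9%) overlapped both noEGF libraries (13.3%, 9.26% to 18.8%, and 9.66%, 6.53% to 14.1%). EM replicate 2 (40.6%, 25.5% to 57.7%) did not. Gsdmc is also the member of the cluster with the smallest share of words in common with other genes.

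Gsdmd, the pore former cut by the inflammatory caspases, went the same way in both lines. It (ENSMUSG00000022575) had 2266 and 2275 counts in CTO19 noEGF, against 1439 and 1453 in CTO19 EM, and 2555 and 2755 in apsMC706 noEGF, against 1500 and 1320 in apsMC706 EM. All 4 noEGF libraries lay above all 4 EM libraries. Its level was 58.8 ± 3.15 CPM in CTO19 noEGF and 41.2 ± 0.588 CPM in CTO19 EM, and 71.2 ± 2.19 CPM in apsMC706 noEGF and 37.8 ± 2.64 CPM in apsMC706 EM (SD, n = 2 each). Over both lines it rose 1.64-fold (log2 fold change 0.71, SE 0.0942), with 1.42-fold (0.51, SE 0.0563) in CTO19 and 1.88-fold (0.91, SE 0.056) in apsMC706. The response was larger in apsMC706, with a difference of -0.40 (SE 0.0794). Genes that rose in both lines made up 17.1% of those tested.

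**Figure D3:**
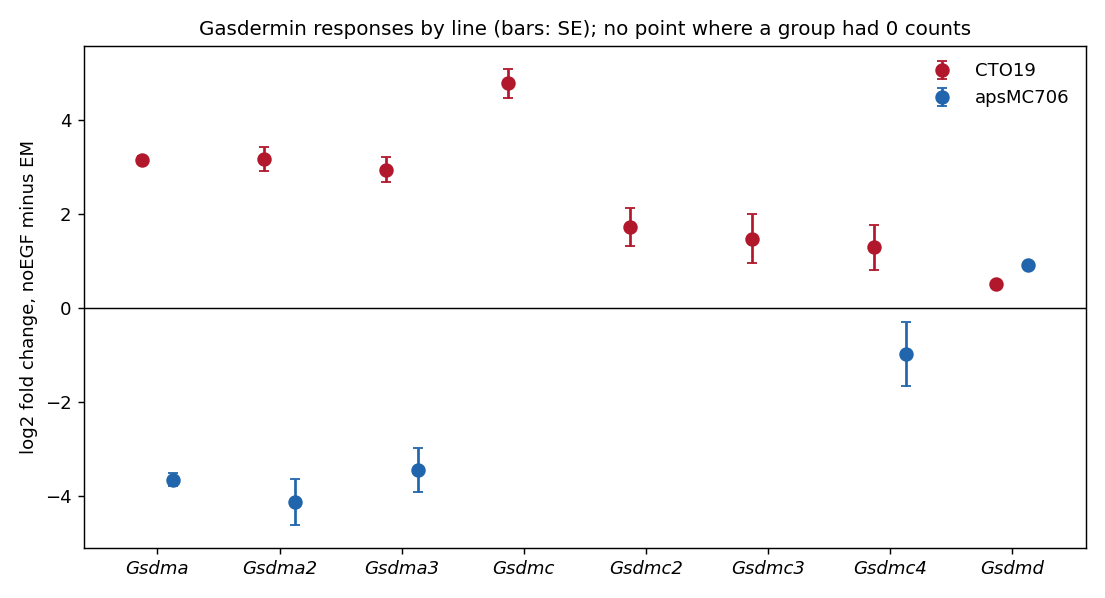
Log2 fold change of noEGF over EM for each gasdermin in CTO19 and apsMC706, with bars of 1 SE and no point where a group had 0 counts. The 3 Gsdma genes lie at 2.93 to 3.16 in CTO19 and -4.12 to -3.45 in apsMC706, and Gsdmd lies above 0 in both lines.

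By CPM, Gsdmd was the main gasdermin transcript in 3 of the 4 groups. The 8 members summed to 134 and 141 CPM in CTO19 noEGF, against 51.2 and 49.3 CPM in CTO19 EM. They summed to 71.1 and 74.4 CPM in apsMC706 noEGF, against 58.4 and 54.7 CPM in apsMC706 EM. Gsdmd made up 45.5% and 40.2% of that sum in CTO19 noEGF and 81.3% and 82.7% in CTO19 EM. In apsMC706 it made up 98.0% and 97.8% in noEGF and 68.0% and 65.7% in EM. Per kilobase of exon, Gsdmd (24.7 ± 1.32 CPM per kb) and Gsdma (23.6 ± 2.29) did not differ beyond their spread in CTO19 noEGF. In apsMC706 noEGF the same levels were 30.0 ± 0.92 CPM per kb for Gsdmd and 0.472 ± 0.0311 for Gsdma. Below them in CTO19 noEGF stood Gsdma3 (2.1 ± 0.334 CPM per kb), Gsdma2 (1.75 ± 0.222) and Gsdmc (1.65 ± 0.181), whose levels overlapped within 1 SD. Gsdmc4 (0.305 ± 0.0434 CPM per kb) and Gsdmc2 (0.267 ± 0.0323) came next, overlapping each other, and Gsdmc3 (0.155 ± 0.0227) was lowest.

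**Figure D4:**
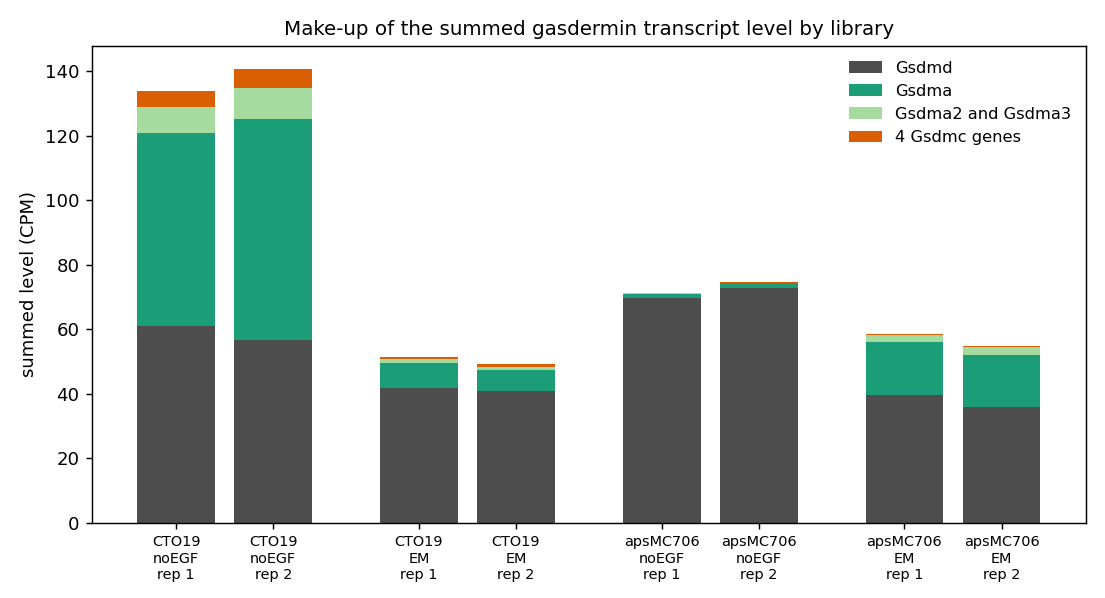
Summed level of the 8 gasdermins (CPM, stacked from 0) in each library, split into Gsdmd, Gsdma, the other Gsdma copies and the 4 Gsdmc genes. The CTO19 noEGF bars reach 134 and 141 CPM with a Gsdma part about as tall as Gsdmd, and the apsMC706 noEGF bars are almost wholly Gsdmd.

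The lines stood apart in different ways in the 2 media. In noEGF 7 members were higher in CTO19 than in apsMC706 and 1, Gsdmd, was lower, where 80.0% of tested genes passed, 45.7% higher and 34.3% lower. Gsdma was 49.8-fold higher in CTO19 noEGF than in apsMC706 noEGF (log2 difference 5.64, SE 0.116), Gsdma2 had 6.26 (SE 0.369) and Gsdma3 5.34 (SE 0.362). Gsdmc4 had 2.36 (SE 0.556), and Gsdmc2 and Gsdmc3 were at least 7.67-fold and 4.47-fold higher. Gsdmd was 1.21-fold lower in CTO19 noEGF (-0.28, SE 0.0539).

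In EM 1 member, Gsdmc, was higher in CTO19 and 3 were lower, where 71.3% of tested genes passed, 37.5% higher and 33.8% lower. Gsdma was 2.22-fold lower in CTO19 EM than in apsMC706 EM (log2 difference -1.15, SE 0.098), Gsdma2 had -1.03 (SE 0.311) and Gsdma3 -1.04 (SE 0.327). The Gsdma2 call was lost without apsMC706 EM replicate 2 (-0.54), and the Gsdma3 call without apsMC706 EM replicate 1 (-0.79) or CTO19 EM replicate 2 (-0.81). Gsdmd had a log2 difference of 0.12 (SE 0.0582), which did not pass, but passed with the stricter filter (0.14) and without apsMC706 EM replicate 1 (0.19).

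Of 5 other gasdermin genes in the table, only Gsdme had enough counts to test. Gsdme, known for inherited hearing loss in humans, stood at 5.16 ± 0.184 CPM in CTO19 noEGF and 9.41 ± 0.199 CPM in CTO19 EM, and at 7.77 ± 0.0712 CPM in apsMC706 noEGF and 7.28 ± 0.643 CPM in apsMC706 EM (SD, n = 2 each). In CTO19 it fell 1.82-fold, or -0.87 as log2 (SE 0.1, adjusted p = 2.37e-06, edgeR), and in apsMC706 its log2 fold change was 0.09 (SE 0.0978, adjusted p = 0.413). The responses differed by -0.96 (SE 0.14, adjusted p = 3.56e-05). Pjvk, a gasdermin of the inner ear, and Gsdmcl1, Gsdmcl2 and Gsdmcl-ps had 0 to 5 counts per library.

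Of the proteases that cut gasdermins, Casp4 and Casp1 rose more in apsMC706 than in CTO19. Of the 8 reported here 4 could be tested. Over both lines Casp4, Casp1 and Casp8 rose, while Casp6 missed the threshold, at 0.28 on the log2 scale (adjusted p = 0.0925, edgeR). Casp6 rose in CTO19, at 24.3 and 25.2 CPM in noEGF, against 17.0 and 17.0 CPM in EM. In apsMC706 it was at 7.8 and 7.45 CPM in noEGF, against 7.94 and 7.33 CPM in EM. Casp4, which encodes caspase-11, the receptor for cytosolic lipopolysaccharide that cuts gasdermin D, was 12.4 ± 0.0334 CPM in CTO19 noEGF and 7.54 ± 0.018 CPM in CTO19 EM, and 66.0 ± 2.44 CPM in apsMC706 noEGF and 10.2 ± 0.74 CPM in apsMC706 EM (SD, n = 2 each). It rose 1.64-fold in CTO19 (adjusted p = 1.35e-06, edgeR) and 6.51-fold in apsMC706 (adjusted p = 1.9e-13). The responses differed by -1.99 on the log2 scale (SE 0.104, adjusted p = 1.14e-09). Casp1, the inflammasome protease, was 9.1 ± 0.163 CPM in CTO19 noEGF and 7.76 ± 0.164 CPM in CTO19 EM, and 14.4 ± 1.42 CPM in apsMC706 noEGF and 2.79 ± 0.0572 CPM in apsMC706 EM. It rose 5.16-fold in apsMC706 (adjusted p = 6.76e-11, edgeR) and 1.17-fold in CTO19 (adjusted p = 0.0463), a call lost without any 1 of the CTO19 libraries or either apsMC706 EM library (log2 fold change 0.21 to 0.26) with no filter (0.21), the DESeq2 Wald test (0.24) or limma-voom (0.23), and in the 4 libraries alone (0.23). The responses of Casp1 differed by -2.14 (SE 0.147, adjusted p = 1.76e-08).

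Casp8, the initiator caspase of death receptors, rose 1.36-fold over both lines (adjusted p = 0.0165, edgeR). The Casp8 call was lost without apsMC706 EM replicate 2 (log2 fold change 0.40), and the Casp1 call over both lines (2.42-fold, adjusted p = 0.0407) without any 1 of the 4 apsMC706 libraries, at log2 fold changes of 0.97 to 1.16. Gzma, Gzmb, Elane and Ctsg, proteases of killer lymphocytes and neutrophils, were at or near 0.

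The sensors Naip6 and Naip5 were abundant in apsMC706 and scarce in CTO19. Of 16 listed sensors and partners 10 could be tested. Over both lines 5 rose and 1 fell, beside 25.5% and 23.3% of all tested genes (median log2 fold change 0.60, against 0.03 over all tested genes). In apsMC706 6 rose and 2 fell, beside 34.1% and 33.1%, and in CTO19 2 rose and 2 fell, beside 34.7% and 33.3%. Between lines in noEGF, 4 were higher and 6 lower in CTO19, beside 45.7% and 34.3%. Naip1, Naip2 and Nlrc4 of this list also lay lower in CTO19 in both media. Naip6 was 2.16 ± 0.0429 CPM in CTO19 noEGF and 1.74 ± 0.238 CPM in CTO19 EM, and 62.1 ± 0.363 CPM in apsMC706 noEGF and 25.9 ± 0.911 CPM in apsMC706 EM (SD, n = 2 each). Naip6 and Naip5, of the family that senses bacterial flagellin and secretion needles, rose 1.83-fold and 1.86-fold over both lines (adjusted p = 0.00807 and 0.0122, edgeR). Their responses were larger in apsMC706, with log2 differences of -0.95 and -1.06, CTO19 minus apsMC706. In CTO19 Naip6 had 79 and 88 counts in noEGF, against 66 and 56 in EM, and Naip5 54 and 61, against 41 and 45. Naip6 and Naip5 are near-copies of each other, so the split of counts between them is uncertain. Aim2, the sensor of cytosolic DNA, rose 1.24-fold (adjusted p = 0.0181), and Dpp9, which restrains Nlrp1, fell 1.14-fold (adjusted p = 0.012). The Aim2 call was lost without CTO19 EM replicate 1 or 2 (log2 fold change 0.26 and 0.27), and the Dpp9 call without CTO19 noEGF replicate 1 or 2 (-0.14 and -0.15). Pycard, the adaptor that joins sensors to caspase-1, was at 0.849 CPM or less in the group means. It had 28 and 38 counts in CTO19 noEGF, against 9 and 6 in CTO19 EM. In apsMC706 it had 7 and 8 counts in noEGF, against 10 and 4 in EM.

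Of the listed cytokines and alarmins, Il18 and Il33 rose over both lines. Il33, an alarmin of epithelial nuclei, was 175 ± 31.1 CPM in CTO19 noEGF and 31.5 ± 2.06 CPM in CTO19 EM, and 164 ± 1.16 CPM in apsMC706 noEGF and 37.4 ± 0.899 CPM in apsMC706 EM (SD, n = 2 each). It rose 4.95-fold over both lines (log2 fold change 2.31, SE 0.11, adjusted p = 4.05e-05, edgeR). Il18 was 51.0 ± 3.34 CPM in CTO19 noEGF and 5.86 ± 0.0228 CPM in CTO19 EM, a rise of 8.7-fold (adjusted p = 1.4e-12, edgeR), and 0.174 CPM or less in apsMC706. There it had 6 and 7 counts in noEGF, against 5 and 1 in EM, a change that did not pass. Hmgb1, a nuclear protein released by dying cells, fell 1.56-fold over both lines (adjusted p = 0.00978). Il1a, an alarmin of epithelial cells, fell 1.98-fold in CTO19 (adjusted p = 6.18e-10), to 62.0 ± 3.91 CPM in noEGF, against 123 ± 4.39 CPM in EM. In apsMC706 it was at 0.885 CPM or less and rose, with 30 and 36 counts in noEGF, against 7 and 10 in EM. Il1b was at 0.2 CPM or less in every group mean. Of 5 listed genes 4 were tested, and over both lines 2 rose and 1 fell (median log2 fold change 0.99), beside 25.5% and 23.3% of all tested genes.

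**Figure D5:**
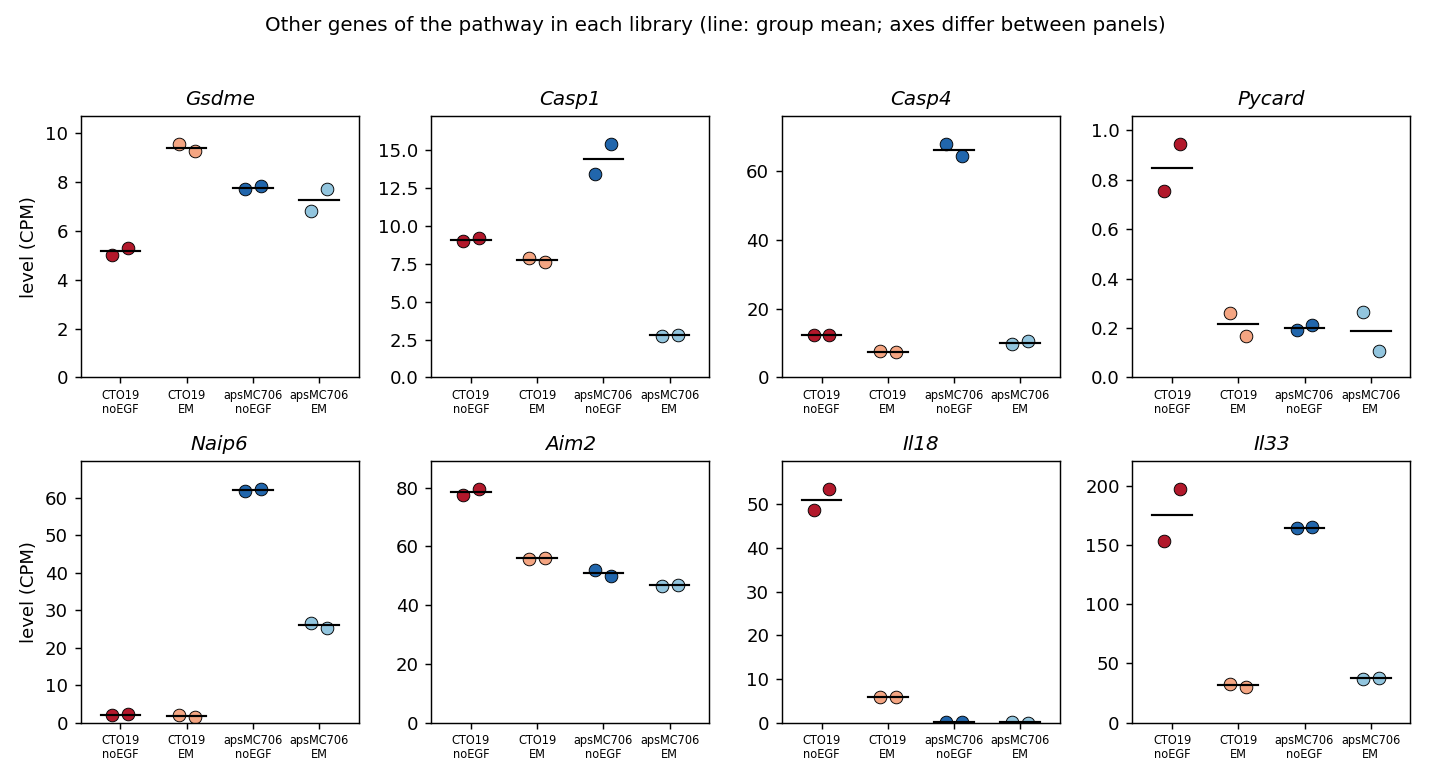
Levels (CPM, from 0, with an axis of its own in each panel) of Gsdme and 7 other genes of the pathway in each library, by group. Points are libraries and lines are group means. Casp1 and Casp4 stand out in apsMC706 noEGF (14.4 and 66.0 CPM) and Il18 in CTO19 noEGF (51.0 CPM).

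Genes that act on the pore or on the membrane after it showed smaller changes. Of 17 genes of membrane rupture and ESCRT-III repair, all tested, 8 rose and 2 fell over both lines (median log2 fold change 0.18), beside 25.5% and 23.3% of all genes. Chmp4c, Chmp4b and Ist1, ESCRT-III subunits that seal membranes, rose 1.7-fold, 1.37-fold and 1.28-fold (adjusted p = 9.09e-05, 0.0022 and 0.00423, edgeR). Chmp6, which starts the ESCRT-III filament, and Vps4a, the ATPase that takes it apart, fell 1.41-fold and 1.19-fold (adjusted p = 0.00137 and 0.00855). Ninj1, which ruptures the plasma membrane after pore formation, was 20.1 ± 0.29 CPM in CTO19 noEGF and 27.4 ± 0.196 CPM in CTO19 EM, and 36.2 ± 0.0733 CPM in apsMC706 noEGF and 32.5 ± 0.662 CPM in apsMC706 EM (SD, n = 2 each). It fell in CTO19 (log2 fold change -0.45, adjusted p = 3.65e-06, edgeR) and rose in apsMC706 (0.16, adjusted p = 0.013), the rise being lost without any 1 of the 4 apsMC706 libraries (0.13 to 0.17).

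Of 12 listed regulators of gasdermin D, 4 rose and 5 fell over both lines (median log2 fold change -0.17), beside 25.5% and 23.3% of all tested genes. Irf1 and Irf2, interferon regulatory factors that drive Gsdmd transcription, each rose 1.25-fold (adjusted p = 0.0214 and 0.0248, edgeR). Lamtor2, of the Ragulator complex needed for pore assembly, rose 1.25-fold (adjusted p = 0.0133), while the Rag GTPase genes Rragc and Rraga each fell 1.15-fold (adjusted p = 0.0101 and 0.0408). The Ragulator genes Lamtor1, Lamtor3 and Lamtor5 fell in apsMC706, to 31.0, 40.0 and 26.4 CPM in noEGF, against 48.6, 51.4 and 36.7 CPM in EM (replicate 1 each). In CTO19 they were at 55.1, 33.9 and 25.9 CPM in noEGF, against 54.7, 34.7 and 25.2 CPM in EM (replicate 1 each). Libraries of Lamtor4 overlapped between media in both lines. Among palmitoyl transferases, which attach a lipid to gasdermin D, Zdhhc9 rose 1.18-fold (adjusted p = 0.0236) and Zdhhc7 fell 1.16-fold (adjusted p = 0.0122). The Irf1 and Irf2 calls were lost without any 1 of the 4 apsMC706 libraries (log2 fold change 0.26 to 0.29). The Zdhhc9 call was lost without CTO19 EM replicate 1 or 2 (0.22 and 0.20), the Zdhhc7 call without CTO19 noEGF replicate 1 or 2 (-0.17 and -0.16) and the Rragc call without CTO19 noEGF replicate 2 (-0.13). The Rraga call was lost without any 1 library other than CTO19 EM replicate 1 (-0.22 to -0.17), and with either other scaling (-0.17 and -0.16).

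Of the type 2 response, which raises Gsdmc genes in mouse intestine, 8 of 12 listed genes were tested. Over both lines 2 rose and 1 fell (median log2 fold change 0.16), beside 25.5% and 23.3% of all tested genes. Il13ra1, a receptor chain for interleukin-13, rose 1.28-fold (adjusted p = 0.00106, edgeR), and Clca1, a goblet cell product induced by it, rose 3.4-fold (adjusted p = 0.0015) at 0.485 to 4.81 CPM. Of the tuft cell genes, the marker Dclk1 fell 2.69-fold (adjusted p = 0.000314), while the transcription factor gene Pou2f3 did not pass over both lines (adjusted p = 0.0608) and rose 4.53-fold in CTO19 (adjusted p = 8.39e-08). In CTO19 4 of the 8 tested genes rose and 3 fell, beside 34.7% and 33.3% of all tested genes. There Il4ra was at 37.0 and 36.8 CPM in noEGF, against 55.2 and 54.8 CPM in EM. Stat6 was at 104 and 106 CPM in CTO19 noEGF, against 120 and 118 CPM in CTO19 EM. Retnlb and Il25 were at or near 0. The TGF-beta pathway has been linked to gasdermin A in human stomach. Of 11 listed genes, 8 for receptors and SMADs with the ligands Tgfb1 and Tgfb2 and the cofactor Lmo1, 6 rose and 0 fell over both lines (median log2 fold change 0.35), beside 25.5% and 23.3% of all tested genes. Among the risers were Smad3 (1.33-fold, adjusted p = 0.00367, edgeR), the receptor gene Acvr1b (1.61-fold, adjusted p = 0.00373) and the targeted gene Smad4 (1.34-fold, adjusted p = 0.0145). In CTO19 7 rose and 2 fell, beside 34.7% and 33.3% of all tested genes. The receptor gene Tgfbr2 was at 322 and 308 CPM in CTO19 noEGF, against 551 and 547 CPM in CTO19 EM. In apsMC706 it was at 284 CPM in both noEGF libraries, against 180 and 179 CPM in EM.

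The summed level of squamous markers ran against that of Gsdma in both lines. Their 8 genes summed to 6370 to 6710 CPM in CTO19 noEGF and 7720 to 7880 CPM in CTO19 EM, where Gsdma rose, and to 30.2 to 35.7 CPM in apsMC706 noEGF and 6.01 to 7.35 CPM in apsMC706 EM, where Gsdma fell. Krt5 and Krt14, keratins of the basal layer, carried the CTO19 sum, Krt14 at 2520 CPM in noEGF and 3480 CPM in EM. Gene by gene 5 of the 8 rose in CTO19 and 2 fell (median log2 fold change 0.65), beside 34.7% and 33.3% of all tested genes. Among the risers were Krt10, Ivl and Dsg3 (5.01, 0.94 and 0.36). The Ivl call was lost without CTO19 EM replicate 1 or 2 (0.94 and 0.93). Krt1, a keratin of differentiating layers, was 796 CPM in CTO19 noEGF and 22.2 CPM in CTO19 EM (log2 fold change 5.16, adjusted p = 3.61e-08, edgeR). Sprr1a, of the cornified envelope, rose in both lines (log2 fold change 3.13 in CTO19, adjusted p = 4.64e-06, and 4.50 in apsMC706, adjusted p = 2.33e-05). Immune markers summed to 6.16 to 8.18 CPM in CTO19 noEGF and 0.787 to 0.897 CPM in CTO19 EM, of which Csf1r made up 6.46 CPM in noEGF, and Cd3e and Lyz2 were at 0 in both groups. Fibroblast markers summed to 10.8 to 11.4 CPM in CTO19 noEGF and 1.8 to 1.91 CPM in CTO19 EM, of which Dcn made up 9.9 CPM in noEGF and 0.1 CPM in EM, while Pdgfra fell 1.57-fold (adjusted p = 0.0312, edgeR). The part of these markers in the gasdermin values was not tested. In bulk RNA, fewer cells of a type and less RNA per cell cannot be told apart.

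For each member the most similar of 9281 genes across the 8 libraries were sought by Pearson r of log2 CPM, as a description. Gsdma was the gene most like Gsdma2 (r = 0.991) and shared the highest value for Gsdma3 (0.990). Dcaf12, a subunit of a ubiquitin ligase, was most like Gsdma (0.989), followed by Crat and Stmn1 (0.984 each). Gsdmc was nearest to Limd2 (0.999), Gsdmc2 to Klhdc3 (0.997), Gsdmc3 to Tm2d2 (0.990) and Gsdmc4 to Gtf2h5 (0.927). Gsdmd was nearest to Coasy (0.993), Mroh1 (0.991) and Zfp316 (0.988). The 8 libraries form 4 pairs, so each r rests largely on 4 group means, and similarity in shape does not mean similarity in size: Dcaf12 was 89.5 CPM in CTO19 noEGF and 66.9 CPM in apsMC706 noEGF.

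Of the tested neighbours of the Gsdma cluster 3 moved the same way in both lines. Next to the Gsdma cluster, Gm12355 (699 bases away) and the proteasome gene Psmd3 (4846 bases away) fell in both lines, and Ormdl3, an inhibitor of sphingolipid synthesis on the other side of Gm12355, rose in both. Csf3, which encodes granulocyte colony-stimulating factor and lies 23555 bases away, was 6.56 CPM in CTO19 noEGF and 27.0 CPM in CTO19 EM (log2 fold change -2.04, adjusted p = 9.89e-11, edgeR), opposite in direction to Gsdma. In apsMC706 it had 2.32 at 0.0801 CPM in noEGF and 0.0136 CPM in EM, which did not pass (adjusted p = 0.0673) but passed with limma-voom (1.96), the stricter filter (2.43) and without apsMC706 EM replicate 2 (4.64). Next to the Gsdmc cluster, Fam49b (16800 bases away) fell in both lines, by 0.76 on the log2 scale in CTO19 and by 0.45 in apsMC706. Beside Gsdmd, Zc3h3 had a log2 fold change of 0.23 in CTO19 (adjusted p = 0.00602, edgeR), lost without CTO19 EM replicate 2 (0.17), and Mroh6 and Naprt did not pass there. In apsMC706 Mroh6 rose by 2.15 (adjusted p = 0.00146). Mafa, at 0.758 CPM or less, rose by 1.87 in apsMC706 (adjusted p = 0.00769) and 1.01 in CTO19 (adjusted p = 0.0272), calls lost without apsMC706 EM replicate 2 (1.58) and without CTO19 EM replicate 1 (0.74) or CTO19 noEGF replicate 1 (0.56).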

How the data were processed

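Poly(A) RNA of 8 organoid libraries was counted. The submitters' processing notes name STAR 2.7.0a and mm10, and the authors deposited raw counts per Ensembl gene. The library kit does not mark strand, per the labels' protocols. No source used here states the counting program or any filter. Of 32728 genes, 32680 were found in GENCODE M21, which gave names and positions, and no member overlaps another gene.

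Genes were kept by filterByExpr (16719 genes, 99.971% of counts) and scaled by TMM. Tests were robust quasi-likelihood F-tests of edgeR 4.0.16 in R 4.3.3, two-sided, with Benjamini-Hochberg adjustment over all tested genes. The model over both lines had terms for line and medium (biological coefficient of variation 16.9%, 5 residual degrees of freedom). Other comparisons used the 4 group means (4.27%, 4 residual degrees of freedom). CPM use TMM factors and so are relative levels. Comparisons of medium were tried on simulated counts with planted fold changes, the same in both lines. The simulation held no difference between lines, and its spread was smaller than that of the model over both lines. Response differences and comparisons of lines were not tried in this way. Replicates within each group differed beyond sampling noise (chi-square per degree of freedom 3.212 to 9.742), so each library counted as 1.

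The members, gene lists and alternatives were chosen with earlier results of these data known. From each list, up to 3 genes per direction of smallest p over both lines, with libraries apart in both lines, are named, with the 2 nearest tested genes on each side of each locus (not all are printed). Casp1, Casp6, Ninj1, Irf2, Pycard, Naip1, Naip2, Nlrc4, Il1b, Csf1r, Cdx1, Cdx2, Krt20, Krt5, Krt10, Krt14, Dsg3, Trp63, Il1a, Il4ra, Stat6, Pou2f3, Lgr5, Vil1, Tgfbr2, Lamtor1, Lamtor3, Lamtor4, Lamtor5, Dcn and Pdgfra were named for their roles after values were seen. Some genes of the list of proteases are not reported here, so no count by direction or median is given for that list.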

Additional observations from a re-analysis of the deposited data

Results flagged for a closer look

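The response to noEGF differed between CTO19 and apsMC706 for many of the genes named here, by the interaction test of edgeR at an adjusted p of 0.05, where 56.0% of all tested genes passed. Values are log2 differences, the response of CTO19 minus that of apsMC706. Among gasdermins they were 6.79 for Gsdma, 7.28 for Gsdma2, 6.38 for Gsdma3, 2.27 for Gsdmc4, -0.40 for Gsdmd and -0.96 for Gsdme. The members' values are a description, since the family was listed with such values known.

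Among caspases they were -2.14 for Casp1, -1.99 for Casp4 and -0.56 for Casp8, while that of Casp6 passed in the positive direction. Among sensors they were -0.95 for Naip6, -1.06 for Naip5 and 0.37 for Aim2. Among released proteins the differences were 2.04 for Il18 and 0.73 for Hmgb1, while that of Il1a passed in the negative direction. The Il18 difference no longer passed without apsMC706 EM replicate 1 (0.59) or apsMC706 noEGF replicate 1 or 2 (1.96 and 2.14). Among genes that act on the membrane or on gasdermin D they were -0.61 for Ninj1, 0.28 for Chmp4b, 0.27 for Ist1, -0.39 for Irf1, -0.42 for Irf2, 0.29 for Zdhhc9 and 0.27 for Rraga.

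In the type 2 and TGF-beta lists the differences were -0.66 for Dclk1, -0.31 for Smad3, 0.57 for Acvr1b and 0.44 for Smad4. Among intestinal and squamous markers they were 0.25 for Epcam, 0.61 for Krt19, 0.40 for Krt8, -1.37 for Sprr1a, 3.70 for Krt1 and -3.08 for Ivl. With limma-voom the differences of Sprr1a, Krt1 and Ivl no longer passed (-1.34, 3.74 and -3.06). That of Sprr1a was also lost without either apsMC706 EM library or CTO19 noEGF replicate 1 (-1.38 to -1.34), that of Krt1 without apsMC706 EM replicate 2 or either CTO19 EM library (3.37 to 3.76), and that of Ivl without apsMC706 EM replicate 1 (-2.75). The Epcam difference was lost with upper-quartile scaling (0.17), the stricter filter (0.16) and without CTO19 noEGF replicate 2 (0.11), and the Psmd3 difference below with no filter (0.14). Among neighbours of the gasdermin loci they were -0.57 for Ormdl3, 0.45 for Gm12355, 0.23 for Psmd3, -4.36 for Csf3, -1.30 for Pvt1, 0.46 for Tsg101-ps, -0.32 for Fam49b, -0.55 for Asap1 and -2.52 for Mroh6. Csf3 rests on few counts in apsMC706, at 0.0801 CPM in noEGF and 0.0136 CPM in EM.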

How the results depend on the processing

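Alternatives were scaling by upper quartiles or by the size factors of DESeq2, testing every counted gene, requiring 1 CPM in 4 or more libraries (the stricter filter, which kept 2 members), limma-voom 3.58.1, the Wald test of DESeq2 1.42.0, summed paralogs, no line term, the 4 libraries of a comparison alone, a replicate block and each library left out. Over both lines 8157 genes passed, 1806 without a line term and 6929 to 7409 with a library left out. The other 5 comparisons kept their counts within 1.5 times. Of 540 values of the members that have a fold, 520 kept direction and call, 16 lost the call and 4 gained it. Among other named genes 1 turned: the noEGF difference of Il33, CTO19 minus apsMC706, was 0.09 and did not pass, and passed at 0.18 without CTO19 noEGF replicate 1 and at -0.18 without replicate 2. Scaling moved the median gene by -0.096 to 0.078 on the log2 scale.

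Replicate numbers were not taken to pair the libraries: correlations of the differences between replicates were -0.00825 to 0.0485 across all genes, and 0.0199 to 0.175 across those of mean log2 CPM 3 or more, with 1 of 6 pairs of groups above 0.1. With the replicate block 6988 genes passed over both lines, and the members' calls were those of the model without it, while Casp1, Rraga, Krt8, Asap1 and Zc3h3 no longer passed there, nor did the response difference of Sprr1a. Few counts limit Gsdmc2, Gsdmc3 and Gsdmc4.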
